A study of Mus musculus with 32 samples.

Results

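DNA replication genes were followed through aging of the blood-forming cells of mouse bone marrow. The group was a fixed list of 45 gene symbols out of the 24421 genes of the count table, chosen by what the genes do, with earlier results of these data known. It held 10 genes of origin licensing, 6 of helicase activation, 4 of primase and polymerase alpha, 5 of polymerases delta and epsilon, 7 of the sliding clamp and its loaders, 3 of single-strand binding, 2 of lagging strand maturation, 5 of nucleotide supply and 3 of chromatin assembly and methylation upkeep. All 45 passed the filter on low counts, and the lowest count of any of them in any library was 36. RNA was sequenced from 8 sorted fractions of C57BL/6 mice, female per the study's methods, at 10 weeks (Young) and 20 months (Aged), with 2 libraries in each of the 16 groups and 32 in all. Every fraction was Lin-. HSCs (hematopoietic stem cells) were IL-7- Sca-1+ c-kit+ cells without CD34, CD48 or Flt3 that carried CD150. The multipotent progenitors were CD34+ cells of the same Sca-1+ c-kit+ gate, with CD150 alone in MPP1s, CD150 and CD48 in MPP2s, CD48 alone in MPP3s, and CD48 with Flt3 in MPP4s. GMPs (granulocyte-macrophage progenitors) were Sca-1- c-kit+ FcgR+ CD34+, MEPs (megakaryocyte-erythrocyte progenitors) lacked FcgR and CD34 in that gate, and CLPs (common lymphoid progenitors) were IL-7+ with low Sca-1 and low c-kit. The labels give no transgene or treatment for any group. The study states that marrow of each age was pooled and sorted in duplicate, so the errors and p-values measure the spread between these libraries and may not cover the spread between mice.

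Before S phase, the origin recognition complex, Cdc6 and Cdt1 load the ring-shaped MCM helicase onto chromatin, a step called licensing. Cdc45, the GINS complex and Mcm10 then activate the helicase, primase with polymerase alpha starts each strand, and polymerases delta and epsilon extend it, held on DNA by the Pcna clamp. Most of these genes are transcribed at the border of G1 and S phase under E2F factors, so their RNA in a sorted population is widely read as a sign of cycling, and HSCs of adult marrow are known to be mostly quiescent. In bulk RNA from sorted cells, a smaller share of cycling cells and less RNA per cycling cell cannot be told apart.

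The fractions were checked against genes of their gates and lineages, in CPM (counts scaled to the library total). Il7r, which encodes the receptor chain for interleukin 7, was at 151 and 151 CPM in Young CLPs and 186 and 183 in Aged CLPs, and was highest there. Flt3 peaked in MPP4s, with 1131 and 1123 CPM in Young and 682 and 781 CPM in Aged cells. The 10 erythroid marker genes summed to between 12460 and 13310 CPM in the 4 MEP libraries, and 10 neutrophil granule genes to between 73780 and 77110 CPM in the 4 GMP libraries.

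Promoter sequence of the members is shown because the genes moved together and E2F factors are the textbook regulators of this group. The promoter table, from RefSeq on the build GRCm38.p6, holds 250 bases before and 50 after each start and had an entry for 37 of the 45 members. Gins1, Gins2, Gins4, Mcm4, Pole, Prim2, Rfc2 and Dscc1 had none. The E2F words TTTGGCGC, TTTCCCGC, TTTGCCGC and TTTCGCGC were searched on both strands. At least 1 word stood in the promoters of 15 of the 37 members (40.5%), against 2.6% of the 27025 genes in the promoter table and 4.52% of the 10646 of them that were tested. Words can overlap, and 5 members (Mcm3, Mcm5, Mcm6, Mcm7 and Rfc3) held more than 1, against 0.107% of all genes. The CCAAT box was found in a promoter of 62.2% of the members and of 41.1% of all genes. The word TTTGAA or TTCGAA, the usual core of a cell cycle element of G2 and M phase genes, was found for 18.9% and 21.7%. These are matches of letters and not measured binding, and the members' promoters had a median GC content of 60.2% against 52.8% over all genes. The 6 printed below, 5′ to 3′ on the strand of the gene, belong to members described further on, and capitals mark the E2F words. They were chosen among promoters that hold such a word, and those of Rrm2, Mcm10 and Pcna, also described further on, held none. Uhrf1 held 1 word 185 bases before the start, Mcm7 1 word 165 bases before and 1 that began 16 bases after it, Mcm5 overlapping words 153 and 149 bases before, and Cdc6 1 word 138 bases before. In Pole2 and Lig1 the word lay 10 and 26 bases past the start.
Uhrf1, chr17:56304063-56304362, plus strand: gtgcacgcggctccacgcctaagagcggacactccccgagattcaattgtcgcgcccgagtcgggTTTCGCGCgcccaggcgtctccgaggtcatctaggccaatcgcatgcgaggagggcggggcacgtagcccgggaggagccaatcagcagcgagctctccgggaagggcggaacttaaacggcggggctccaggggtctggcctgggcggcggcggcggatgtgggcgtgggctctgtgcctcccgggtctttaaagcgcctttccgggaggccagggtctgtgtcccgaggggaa
Mcm7, chr5:138171834-138172133, minus strand: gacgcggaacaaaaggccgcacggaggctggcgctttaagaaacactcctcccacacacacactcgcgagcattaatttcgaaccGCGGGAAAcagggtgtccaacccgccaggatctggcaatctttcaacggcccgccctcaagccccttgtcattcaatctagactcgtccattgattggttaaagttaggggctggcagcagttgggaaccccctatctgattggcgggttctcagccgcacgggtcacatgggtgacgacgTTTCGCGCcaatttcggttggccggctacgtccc
Mcm5, chr8:75109259-75109558, plus strand: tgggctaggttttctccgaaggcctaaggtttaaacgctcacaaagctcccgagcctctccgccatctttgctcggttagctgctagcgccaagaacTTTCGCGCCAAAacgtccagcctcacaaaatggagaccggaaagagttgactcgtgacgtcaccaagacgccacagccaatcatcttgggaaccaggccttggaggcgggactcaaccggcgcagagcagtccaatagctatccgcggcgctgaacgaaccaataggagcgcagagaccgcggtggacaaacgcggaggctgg
Cdc6, chr11:98907901-98908200, plus strand: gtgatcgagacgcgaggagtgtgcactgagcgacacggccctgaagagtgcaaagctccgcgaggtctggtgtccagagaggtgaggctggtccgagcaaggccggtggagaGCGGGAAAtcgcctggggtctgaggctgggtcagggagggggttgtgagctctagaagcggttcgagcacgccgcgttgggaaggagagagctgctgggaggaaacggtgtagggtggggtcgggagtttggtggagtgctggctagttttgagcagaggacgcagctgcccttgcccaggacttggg
Pole2, chr12:69228141-69228440, minus strand: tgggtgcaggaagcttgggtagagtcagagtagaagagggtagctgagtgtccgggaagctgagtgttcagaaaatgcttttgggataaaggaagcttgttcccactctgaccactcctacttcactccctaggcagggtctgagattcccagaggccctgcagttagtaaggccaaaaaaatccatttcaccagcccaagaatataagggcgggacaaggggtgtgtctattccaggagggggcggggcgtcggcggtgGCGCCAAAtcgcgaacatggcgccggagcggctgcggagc
Lig1, chr7:13278576-13278875, plus strand: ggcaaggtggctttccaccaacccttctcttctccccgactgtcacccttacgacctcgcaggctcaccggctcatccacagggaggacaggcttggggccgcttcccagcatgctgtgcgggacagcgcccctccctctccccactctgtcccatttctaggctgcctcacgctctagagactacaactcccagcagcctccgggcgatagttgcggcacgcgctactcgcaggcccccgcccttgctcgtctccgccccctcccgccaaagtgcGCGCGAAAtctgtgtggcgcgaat

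In Young mice, replication genes were lowest in HSCs and higher in each of the other fractions. In CPM the Young HSC mean was the lowest of the 16 group means for 42 of the 45 genes. The exceptions were Gins4, a GINS subunit with its lowest mean in Aged HSCs, Pole, the catalytic subunit of polymerase epsilon, in Young GMPs, and Chaf1b, a subunit of chromatin assembly factor 1, in Aged CLPs. Summed over all 45 genes the level was 3818 and 3744 CPM in the Young HSC libraries, 7667 and 7643 in MPP1s, 11010 and 11030 in MPP2s, 9100 and 9264 in MPP3s and 9223 and 9415 in MPP4s. It was 10750 and 11150 CPM in Young GMPs, 16650 and 16500 in Young MEPs and 11370 and 11260 in Young CLPs. MEPs had the largest share of counts in replication genes and HSCs the smallest, and MPP3s and MPP4s did not differ beyond the spread of their libraries. These sums use library totals alone. The further scaling factors of the fit were 0.8073 and 0.8164 in Young GMPs, 0.9578 and 0.9509 in Young CLPs and 1.079 and 1.074 in Young MPP2s. The order of GMPs, CLPs and MPP2s therefore depends on the scaling. On the CPM level per kb of transcript the highest member in Young HSCs was Mcm6 at 117 and the lowest Mcm10 at 1.33, with a median of 19.2, and in Young MEPs the range was from Dscc1 at 15.6 to Rrm2 at 486 with a median of 79.

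Adjusted p-values here and below are from edgeR's quasi-likelihood test with Benjamini-Hochberg adjustment over the 14154 genes tested, two-sided, and a gene was called at an adjusted p under 0.01. Against Young HSCs, 41 of the 45 members were higher in Young MPP1s, where 9.1% of all genes tested were called higher, 44 in MPP2s (17.5% of all genes), 43 in MPP3s (17.5%) and 44 in MPP4s (18.5%). In Young GMPs 44 were higher (31.8% of all genes), in MEPs 45 (29.7%) and in CLPs 45 (29.2%). The median log2 fold change of the members over Young HSCs was 1.05 in MPP1s, 1.60 in MPP2s, 1.31 in MPP3s, 1.44 in MPP4s, 2.04 in GMPs, 2.43 in MEPs and 1.83 in CLPs, while the median of all genes in these comparisons lay between -0.24 and 0.05. These 7 comparisons share the Young HSC libraries. Rrm2, the small subunit of ribonucleotide reductase, had the largest difference, with log2 fold changes of 5.65 ± 0.09 in MEPs, 4.82 ± 0.09 in CLPs and 4.67 ± 0.09 in GMPs. Cdc6 and Orc1 followed in MEPs at 4.89 ± 0.10 and 4.77 ± 0.20. At the other end, Pole differed by 0.01 ± 0.12 between Young GMPs and HSCs (adjusted p = 0.981), and Gins4 was called in none of MPP1s to MPP4s.

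**Figure D1:**
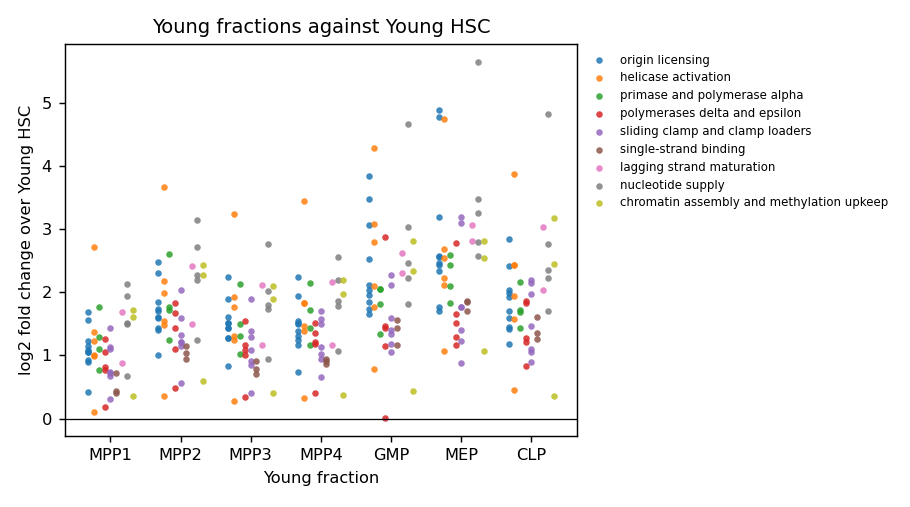
Log2 fold change of each DNA replication gene (points) in 7 Young fractions over Young HSCs, grouped by role, from the fit on all 32 libraries. Nearly all points lie above 0, and Rrm2 reaches 5.65 in MEPs.

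With age the summed level of the 45 genes was higher in HSCs and in each MPP fraction and lower in GMPs, MEPs and CLPs. The share of members that passed the test differed widely between fractions, as given below. In the Aged HSC libraries the members summed to 4575 and 4458 CPM, against 3818 and 3744 in Young ones. The Aged sums were 11070 and 11000 CPM in MPP1s, 12760 and 12620 in MPP2s, 12260 and 12650 in MPP3s and 12190 and 12430 in MPP4s, each above both Young libraries of the same fraction. In GMPs they were 10120 and 10010 CPM, in MEPs 15140 and 15280 and in CLPs 8140 and 9899, each below both Young libraries. The 4 Aged MPP fractions lay within 11000 and 12760 CPM, where the Young ones had spanned 7643 to 11030. The largest gap between duplicates was that of the Aged CLPs.

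**Figure D2:**
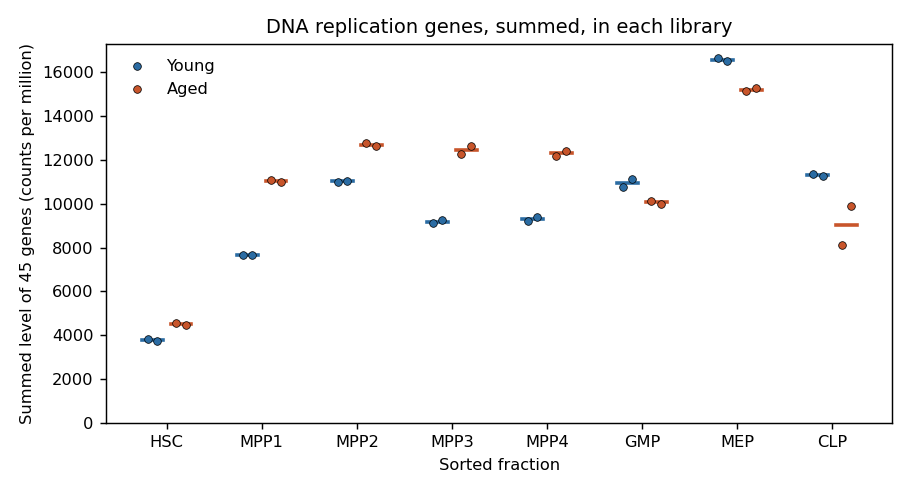
Summed level of the 45 DNA replication genes in CPM in each of the 32 libraries, by fraction, Young and Aged. Aged libraries lie above Young ones in HSCs and MPP1s to MPP4s and below them in GMPs, MEPs and CLPs, and the 2 Aged CLP libraries stand apart at 8140 and 9899 CPM.

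Of the 45 members, 16 rose in Aged HSCs and 0 fell, where 3.74% of all genes tested rose and 1.66% fell. In MPP1s 39 rose (4.71% of all genes), in MPP2s 13 (4.49%), in MPP3s 38 (8.14%) and in MPP4s 34 (10.3%). No member fell in any of the 4 by this test, where 2.09%, 3.31%, 5.79% and 6.27% of all genes fell. At an unadjusted p under 0.05, 34 members were higher in HSCs, 45, 34, 44 and 39 in MPP1s to MPP4s, and 0 were lower in each of the 5. DESeq2 called 26, 40, 19, 40 and 35 higher and 0 lower. The median log2 fold change, Aged over Young, was 0.32 in HSCs (range -0.08 to 1.39), 0.56 in MPP1s (0.31 to 0.99), 0.29 in MPP2s (0.08 to 0.60), 0.50 in MPP3s (0.10 to 0.99) and 0.48 in MPP4s (0.06 to 1.06), with medians over all genes of at most 0.05 in size. Over the mean of the 4 MPP fractions all 45 were called higher, where 18.9% of all genes were. These had a median of 0.44 and a range from 0.21 for Rfc1 to 0.81 for Rrm2 and Tk1. Both Aged libraries lay above both Young libraries for 32 members in HSCs (22.1% of all genes), 45 in MPP1s (27.0%), 41 in MPP2s (27.3%), 44 in MPP3s (25.8%) and 39 in MPP4s (23.5%). By count of MPP fractions, 13 members rose in 4, 19 in 3, 6 in 2 and 3 in 1, and the 4 called in no single MPP fraction were Gins3, Gins4, Rpa1 and Rfc1. The calls in HSCs of Uhrf1, Lig1, Mcm10, Tk1, Tyms, Rrm1 and Rrm2 held without any 1 HSC library. The count fell to 8 without Young HSC replicate 2 and to 1 when only the 4 HSC libraries were fitted. In MPP2s it was 3 without Young replicate 1, 5 without Young replicate 2, 3 without Aged replicate 1 and 6 without Aged replicate 2. The calls in MPP2s that held without any 1 library of that fraction were those of Rrm1, Rrm2 and Tyms, while 25 of the 39 held in MPP1s, 25 of the 38 in MPP3s and 20 of the 34 in MPP4s.

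In Aged CLPs 17 members fell and 0 rose, where 4.73% of all genes tested fell and 5.71% rose. At an unadjusted p under 0.05, 33 were lower and 0 higher, and DESeq2 called 23 lower and 0 higher. The median log2 fold change was -0.33 (range -0.60 to 0.02), and both Aged libraries lay below both Young ones for 37 members, against 31.0% of all genes. Rfc1 at 0.02 ± 0.11 was the 1 member with a positive sign. This comparison leaned on single libraries more than the others. Without Aged CLP replicate 1, which had the lower sum, 3 members were called (Rrm2, Pcna and Dut), without Aged CLP replicate 2 there were 26, without either Young library 7, and with only the 4 CLP libraries fitted 0.

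In Aged GMPs 12 members fell and 4 rose, where 8.97% of all genes tested fell and 9.93% rose, with a median log2 fold change of -0.15 (range -0.78 to 0.64). Both Aged libraries lay below both Young ones for 24 members (24.5% of all genes) and above for 11 (34.3%). The genes that fell were Orc1, Orc6, Cdc6, Cdt1, Mcm4, Mcm5, Mcm6, Pole2, Pcna, Fen1, Rrm1 and Rrm2, and those that rose were Rfc1, Pole, Lig1 and Chaf1a. The count of members that fell was 5 without Aged GMP replicate 1, 6 without Aged GMP replicate 2 and 7 without Young GMP replicate 2. That of members that rose was 1 or 2 without any 1 of the 4 libraries. The calls that held without any 1 GMP library were those of Cdc6, Mcm4, Mcm6, Pcna and Rrm1, which fell, and of Rfc1, which rose. In Aged MEPs 7 members fell (Gins3, Pcna, Dscc1, Mcm4, Mcm6, Rrm1 and Rrm2) and 3 rose (Rfc1, Lig1 and Chaf1a). Of all genes 11.7% fell and 9.08% rose, so the share of members lay near that of all genes. The median was -0.05 (range -0.52 to 0.50), with both Aged libraries below for 20 members (28.5% of all genes) and above for 11 (28.1%). Without either Aged MEP library 4 members fell and 0 rose, and 0 rose without Young MEP replicate 2 and 1 without Young MEP replicate 1. The falls of Mcm6, Pcna, Rrm1 and Rrm2 held without any 1 MEP library.

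The age differences themselves differed between fractions. The difference in CLPs was smaller than the mean of that in MPP1s to MPP4s for 42 of the 45 members, where this held for 12.3% of all genes tested, with a median gap of -0.81 on the log2 scale (range -1.36 to -0.19). It was smaller in GMPs for 34 members (13.8% of all genes) with a median of -0.68, and in MEPs for 34 (14.7%) with a median of -0.57. Rfc1 was the 1 member with a larger difference in GMPs, by 0.43 ± 0.12 (adjusted p = 0.00921), where 12.7% of all genes tested had one. HSCs and the mean of the MPPs gave 1 called gap, that of Mcm10 at 0.69 ± 0.14 (adjusted p = 0.00343), higher in HSCs as for 1.91% of all genes tested. In the other direction edgeR called 0, where an unadjusted p under 0.05 gave 4 higher and 13 lower and DESeq2 called 2 and 4. These comparisons share the MPP libraries. The gap of Mcm10 was not called without Aged HSC replicate 1 or Young HSC replicate 2, or without any 1 of 9 of the 16 MPP libraries. The gap of Rfc1 was not called without any 1 of the 4 GMP libraries or of 13 of the MPP libraries.

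**Figure D3:**
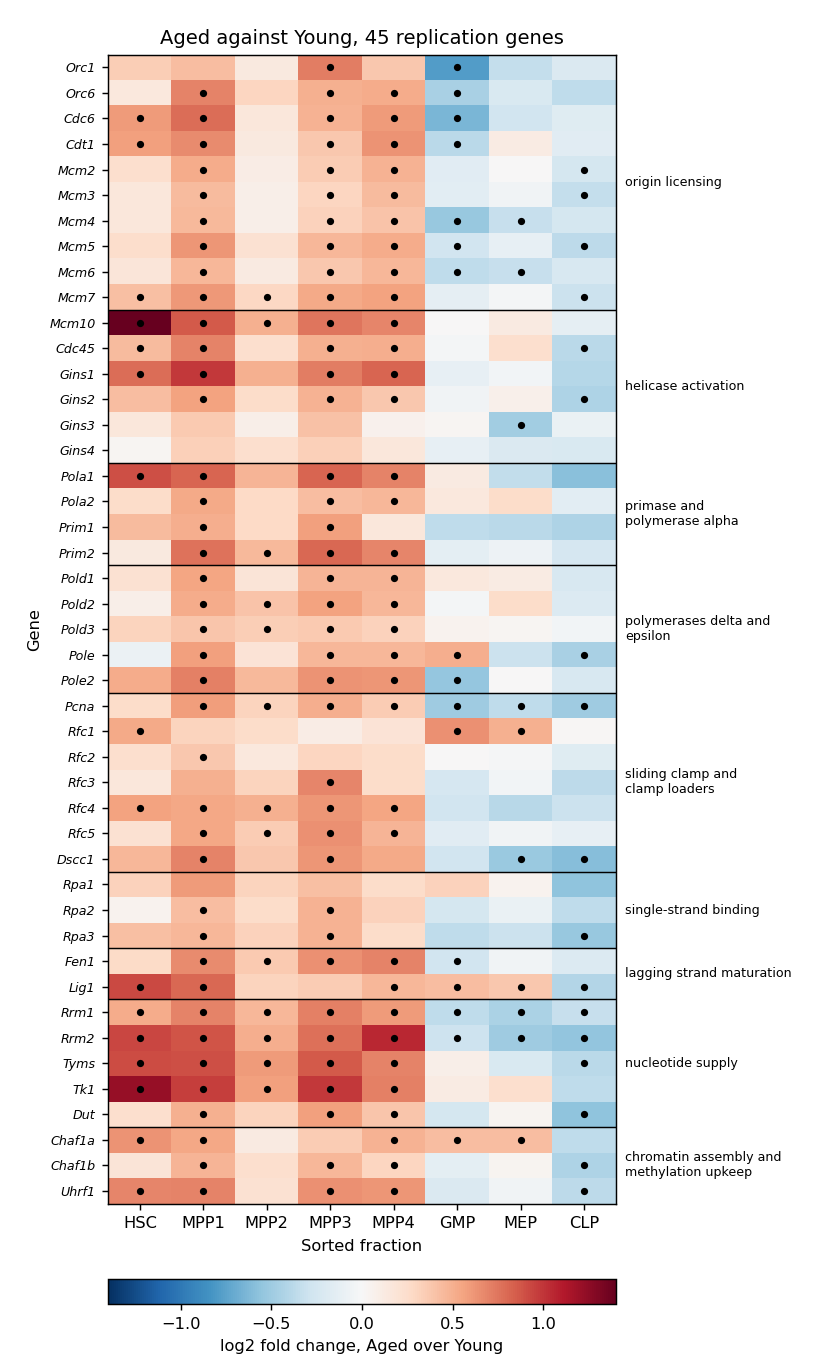
Log2 fold change, Aged over Young, of the 45 DNA replication genes (rows, by role) in 8 fractions (columns), with a dot where the adjusted p was under 0.01. The columns of HSCs and MPP1s to MPP4s are almost all positive, the CLP column is negative but for Rfc1, and the GMP and MEP columns hold both signs.

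Levels of single genes are given below in CPM as the 2 Young libraries (replicates 1 and 2) against the 2 Aged libraries, and differences as log2 fold changes, Aged over Young, ± SE. Positions are from GENCODE M21 on GRCm38 (mm10). The shares of all genes given above apply to the counts by role below.

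The 10 licensing genes encode the origin recognition subunits Orc1 and Orc6, the loaders Cdc6 and Cdt1 and the 6 subunits of the MCM ring. With age 3 rose in HSCs, 9 in MPP1s, 1 in MPP2s, 10 in MPP3s and 9 in MPP4s, while 7 fell in GMPs, 2 in MEPs and 4 in CLPs. Mcm7 (chr5:138164583-138172422, minus strand), an MCM subunit, was at 230.1 and 236 against 307 and 296 CPM in HSCs, 513 and 540.0 against 779.7 and 778 in MPP1s, 751 and 755.5 against 902 and 877 in MPP2s, 654 and 648 against 911 and 904 in MPP3s and 631 and 693 against 899 and 937 in MPP4s. Its level was 731 and 784 against 723 and 717 CPM in GMPs, 1112 and 1150 against 1099 and 1113 in MEPs and 792 and 829 against 569 and 732 in CLPs. Aged libraries lay above Young ones without overlap in the 5 more immature fractions and below them in GMPs and CLPs, and the MEP groups overlapped. The log2 fold change was 0.50 ± 0.04 (adjusted p = 3.68e-10) over the MPPs, 0.42 ± 0.07 (adjusted p = 0.000471) in HSCs and -0.30 ± 0.07 (adjusted p = 0.0042) in CLPs. An exon of Mcm7 overlaps Ap4m1 over 321 bases, and the counting is not stated to use strand. Mcm5 (chr8:75109569-75128439, plus strand), another MCM subunit, was at 186 and 208 against 226 and 227 CPM in HSCs, 419 and 429 against 629 and 639.7 in MPP1s, 648 and 643 against 737 and 701 in MPP2s, 551 and 551 against 739 and 738 in MPP3s and 561 and 546 against 756 and 743 in MPP4s. In the committed progenitors Mcm5 stood at 822.5 and 875 against 733.5 and 729 CPM in GMPs, 1030 and 1012 against 950.0 and 943 in MEPs and 655 and 668 against 453.5 and 558 in CLPs. It rose in MPP1s, MPP3s and MPP4s, by 0.46 ± 0.03 over the mean of the MPPs (adjusted p = 3.93e-10), and fell in GMPs (-0.27 ± 0.07 (adjusted p = 0.00338)) and CLPs (-0.37 ± 0.07 (adjusted p = 0.000345)). The GMP call of Mcm5 was lost without Young replicate 2 or either Aged replicate of the GMPs and with only the 4 GMP libraries fitted.

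Cdc6 (chr11:98907801-98923940, plus strand), the loader with the largest difference of this role between Young fractions and HSCs, was at 14.3 and 16.7 against 22.4 and 23.2 CPM in HSCs, 48.9 and 53.6 against 84.1 and 87.04 in MPP1s, 85.2 and 86.9 against 94.3 and 91.8 in MPP2s, 71.2 and 72.97 against 92.5 and 103 in MPP3s and 71.6 and 71.9 against 99.2 and 105 in MPP4s. Beyond the MPPs it was at 167 and 167 against 116 and 106 CPM in GMPs, 419.8 and 395 against 329 and 346 in MEPs and 95.5 and 100 against 77.2 and 95.3 in CLPs. Young MEPs had 26.2 times the mean level of Young HSCs. Cdc6 rose in HSCs (0.60 ± 0.10 (adjusted p = 0.000331)), MPP1s, MPP3s and MPP4s, and fell in GMPs by 0.64 on the log2 scale (adjusted p = 6.61e-06). In MEPs and CLPs the Aged libraries also lay below the Young ones, with differences that were not called (-0.27 ± 0.08 (adjusted p = 0.0144) and -0.17 ± 0.08 (adjusted p = 0.185)). Orc1, the largest subunit of the origin recognition complex, showed the deepest fall among the members in GMPs, from 30.5 and 39.9 to 22.3 and 20.3 CPM (-0.78 ± 0.17 (adjusted p = 0.0015)). All 10 licensing genes had a negative log2 fold change in GMPs, with a median of -0.37, and all 10 had a smaller age difference there than in the mean of the MPPs. Of the 7 that fell in GMPs, between 3 and 7 were called when 1 GMP library was left out, and the Orc1 call was lost without Young replicate 2 or either Aged replicate.

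Helicase activation is carried by Cdc45, the 4 GINS subunits and Mcm10, which together turn the loaded MCM ring into a moving helicase. With age 3 of these 6 genes rose in HSCs, 4 in MPP1s, 1 in MPP2s, 4 in MPP3s and 4 in MPP4s, while 0 were called in GMPs (0 at an unadjusted p under 0.05 in edgeR and 0 in DESeq2), 1 fell in MEPs and 2 in CLPs. Mcm10 (chr2:4989714-5012791, minus strand) had the largest rise of all members in HSCs. It was at 7.55 and 5.42 against 17.9 and 14.9 CPM in HSCs, 44.5 and 41.6 against 74.2 and 77.97 in MPP1s, 77.2 and 83.7 against 113 and 106 in MPP2s, 59.7 and 59.2 against 92.8 and 100.5 in MPP3s and 69.8 and 65.8 against 103 and 101 in MPP4s. In GMPs and beyond, Mcm10 was at 87.9 and 98.1 against 104 and 88.6 CPM in GMPs, 148 and 153 against 161 and 168 in MEPs and 86.7 and 79.4 against 68.7 and 81.4 in CLPs. The Aged HSC level was still below that of every MPP library. Mcm10 rose by 1.39 ± 0.13 (adjusted p = 2.42e-07) in HSCs and by 0.70 ± 0.05 (adjusted p = 2.73e-10) over the MPPs, and was called in each MPP fraction. In GMPs and CLPs the groups overlapped. Cdc45 (chr16:18780447-18811987, minus strand) was at 23.9 and 19.7 against 28.6 and 28.4 CPM in HSCs, 55.7 and 58.9 against 89.02 and 90.3 in MPP1s, 97.6 and 97.2 against 109.5 and 112 in MPP2s, 73.8 and 69.6 against 99.4 and 97.2 in MPP3s and 74.7 and 76.3 against 104.5 and 98.1 in MPP4s. Its committed progenitor levels were 135 and 139 against 144 and 134 CPM in GMPs, 111 and 113 against 134 and 130.5 in MEPs and 102 and 105 against 68.5 and 88.5 in CLPs. Cdc45 rose in HSCs (0.44 ± 0.09 (adjusted p = 0.00333)) and over the MPPs (0.48 ± 0.04 (adjusted p = 5.08e-09)), and fell in CLPs (-0.38 ± 0.08 (adjusted p = 0.00242)). In MEPs both Aged libraries lay above both Young ones without a call (0.24 ± 0.08 (adjusted p = 0.0269)). Gins3 and Gins4 were among the members that moved least in the MPPs, at 0.23 ± 0.06 and 0.27 ± 0.05 over the mean.

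Primase and polymerase alpha lay down the first stretch of RNA and DNA on each strand. Of their 4 genes 1 rose in HSCs, 4 in MPP1s, 1 in MPP2s, 4 in MPP3s and 3 in MPP4s with age, and 0 were called by edgeR in GMPs, MEPs or CLPs. At an unadjusted p under 0.05, 1 was lower in GMPs, 1 higher and 1 lower in MEPs and 3 lower in CLPs, and DESeq2 called 1, 1 and 2 of them lower. Prim2 (chr1:33453810-33669795, minus strand), the large primase subunit, was at 25.2 and 18.9 against 25.5 and 21.5 CPM in HSCs, 47.6 and 48.02 against 78.8 and 79.2 in MPP1s, 73.8 and 69.05 against 94.6 and 94.1 in MPP2s, 54.2 and 52.1 against 84.95 and 93.9 in MPP3s and 58.98 and 56.8 against 84.2 and 90.6 in MPP4s. In the other fractions Prim2 was at 63.8 and 71.5 against 61.2 and 65.8 CPM in GMPs, 116 and 116 against 113 and 109 in MEPs and 62.6 and 63.7 against 45.96 and 60 in CLPs. It was called in all 4 MPP fractions, by 0.67 ± 0.05 (adjusted p = 1.03e-09) over their mean, while the HSC groups overlapped. Prim1 (chr10:128015168-128030037, plus strand), the catalytic primase subunit, was at 28.2 and 29.96 against 43.6 and 33.4 CPM in HSCs, 72.3 and 73.5 against 102 and 99.8 in MPP1s, 97.6 and 98.01 against 109 and 119 in MPP2s, 81.6 and 79.9 against 112 and 119.7 in MPP3s and 79.99 and 107.5 against 92 and 106 in MPP4s. Its other levels were 87.01 and 92.7 against 71.5 and 75.1 CPM in GMPs, 131 and 145 against 104 and 108 in MEPs and 82.01 and 83.1 against 52.96 and 68.4 in CLPs. The Aged libraries of GMPs and of CLPs lay below the Young ones, but neither difference was called (-0.35 ± 0.12 (adjusted p = 0.0317) and -0.43 ± 0.12 (adjusted p = 0.015)). Pola1 (chrX:93304767-93632155, minus strand), the catalytic subunit of polymerase alpha, was at 24.4 and 27.9 against 60.5 and 35.2 CPM in HSCs, 96 and 86.7 against 158.5 and 152 in MPP1s, 164 and 149.9 against 209 and 212 in MPP2s, 114.5 and 109.7 against 180.0 and 204 in MPP3s and 117 and 109.5 against 168 and 177 in MPP4s. It was at 62.9 and 74.1 against 79.7 and 75.6 CPM in GMPs, 90.6 and 107 against 63.3 and 92.4 in MEPs and 115 and 90.6 against 66.2 and 70.1 in CLPs. The 2 Aged HSC libraries were far apart, and without the higher one, Aged HSC replicate 1, or without either Young HSC library, the rise of 0.90 ± 0.18 (adjusted p = 0.00208) in HSCs was not called. Pola1 peaked in Aged MPP2s and not in MEPs, unlike most members.

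Polymerases delta and epsilon copy most of the lagging and the leading strand. All 5 of their genes rose in MPP1s, MPP3s and MPP4s and 2 in MPP2s. In HSCs 0 were called by edgeR, where 3 were higher at an unadjusted p under 0.05 and DESeq2 called 2 higher. In MEPs 0 were called, with 1 higher and 1 lower at an unadjusted p under 0.05 and 1 lower by DESeq2, while 1 rose and 1 fell in GMPs and 1 fell in CLPs. Pold2 (chr11:5872180-5878292, minus strand), an accessory subunit of polymerase delta, was at 119 and 121 against 111 and 134 CPM in HSCs, 139 and 140.3 against 193 and 195 in MPP1s, 166 and 166 against 211 and 212 in MPP2s, 146 and 153 against 201 and 225 in MPP3s and 151 and 160.4 against 201 and 204 in MPP4s. From GMPs onward it was at 206 and 192 against 204 and 202 CPM in GMPs, 259.8 and 254 against 309.9 and 304 in MEPs and 185.5 and 192 against 149.7 and 177 in CLPs. Pold2 rose in each MPP fraction (0.48 ± 0.04 (adjusted p = 7.59e-09)) and its HSC groups overlapped (0.08 ± 0.09 (adjusted p = 0.639)). Pole2 (chr12:69201773-69228195, minus strand), an accessory subunit of polymerase epsilon, was at 10.04 and 8.86 against 15.6 and 10.8 CPM in HSCs, 25.3 and 20.9 against 35.8 and 37.5 in MPP1s, 32.5 and 33.9 against 46.8 and 40.8 in MPP2s, 27.3 and 26.8 against 41.2 and 39.5 in MPP3s and 24.8 and 28.1 against 38.4 and 38.2 in MPP4s. Elsewhere Pole2 was at 50.8 and 51.9 against 35.6 and 37.6 CPM in GMPs, 59.1 and 55.1 against 56.7 and 57.5 in MEPs and 31.2 and 28.7 against 22.1 and 28.7 in CLPs. It rose over the MPPs (0.60 ± 0.06 (adjusted p = 6.3e-08)) and fell in GMPs (-0.54 ± 0.12 (adjusted p = 0.00164)), a call lost without either Aged GMP replicate, with offsets for GC content and length and with only the 4 GMP libraries. Pole (chr5:110286306-110337474, plus strand), the catalytic subunit, was at 65.5 and 54.9 against 58.97 and 51.5 CPM in HSCs, 129 and 124 against 181 and 184.5 in MPP1s, 201 and 179 against 214 and 205 in MPP2s, 129.8 and 133.5 against 179 and 172 in MPP3s and 154 and 144 against 197 and 187 in MPP4s. Its levels in committed cells were 48.1 and 41.9 against 68.5 and 65.02 CPM in GMPs, 98.8 and 137 against 90.7 and 99.9 in MEPs and 128 and 117 against 80.7 and 97.04 in CLPs. In contrast to Pole2, Pole rose in GMPs (0.51 ± 0.12 (adjusted p = 0.0021)), from the lowest mean CPM of any group, and fell in CLPs (-0.45 ± 0.11 (adjusted p = 0.00813)). In the fit, which scales the libraries further, Pole in Young GMPs was not called different from Young HSCs. With offsets for GC content and length the GMP difference of Pole was 0.16 and was not called, and it was lost without Young replicate 2 or either Aged replicate of the GMPs. The HSC difference of Pole was -0.08 ± 0.12 (adjusted p = 0.77), the 1 negative value among the members there.

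The sliding clamp Pcna encircles DNA, replication factor C (Rfc1 to Rfc5) opens and loads it, and Dscc1 belongs to an alternative loader. Of these 7 genes 2 rose in HSCs, 5 in MPP1s, 3 in MPP2s, 5 in MPP3s and 3 in MPP4s, with 1 up and 1 down in GMPs, 1 up and 2 down in MEPs and 2 down in CLPs. Pcna (chr2:132249162-132253314, minus strand) was at 157.5 and 177 against 213 and 177 CPM in HSCs, 277 and 284 against 401 and 415.5 in MPP1s, 363 and 373 against 448 and 434 in MPP2s, 312.5 and 308 against 436 and 417 in MPP3s and 320.2 and 340.0 against 402.5 and 393 in MPP4s. Further along it was at 323 and 310.5 against 227 and 237 CPM in GMPs, 519 and 480.1 against 388 and 388 in MEPs and 411 and 399.9 against 268 and 298 in CLPs. It rose in all 4 MPP fractions (0.44 ± 0.03 (adjusted p = 1.7e-09) over their mean). It fell in all 3 committed fractions, with log2 fold changes of -0.50 ± 0.07 in GMPs (adjusted p = 1.7e-05), -0.36 ± 0.07 in MEPs (adjusted p = 0.00042) and -0.50 ± 0.07 in CLPs (adjusted p = 3.03e-05). The genome holds pseudogenes of Pcna, whose reads the counting could split. Rfc5 (chr5:117378103-117389047, minus strand), a loader subunit, was at 107 and 104 against 114 and 122 CPM in HSCs, 169 and 171 against 235 and 248 in MPP1s, 246 and 239 against 304 and 297 in MPP2s, 185 and 187 against 272 and 288 in MPP3s and 185 and 208 against 254 and 261.5 in MPP4s. For Rfc5 the later levels were 234 and 240.2 against 219 and 222 CPM in GMPs, 303 and 323 against 305 and 299.7 in MEPs and 201 and 194.5 against 161 and 198 in CLPs. It rose in each MPP fraction (0.51 ± 0.04 (adjusted p = 5.46e-10)) and was called in no other. Rfc4 (chr16:23113943-23127737, minus strand), also a loader subunit, was at 28.6 and 23.1 against 34.99 and 38.5 CPM in HSCs, 55.4 and 60.5 against 85.9 and 78.2 in MPP1s, 78.7 and 75.5 against 105 and 105 in MPP2s, 67.98 and 64.5 against 97.9 and 99.5 in MPP3s and 64.5 and 78.02 against 99.6 and 97.5 in MPP4s. At later stages Rfc4 was at 93.5 and 93.2 against 79.02 and 81.6 CPM in GMPs, 208 and 208 against 164 and 153 in MEPs and 90.3 and 87.1 against 57.95 and 84.96 in CLPs. Rfc4 rose in HSCs (0.56 ± 0.13 (adjusted p = 0.00652)) and each MPP fraction, and the lower levels in Aged MEPs were not called (-0.39 ± 0.12 (adjusted p = 0.0126)).

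Rfc1 (chr5:65261850-65335670, minus strand), the largest loader subunit, was the 1 member whose age difference was called larger in GMPs than over the MPPs. Its level was 45.95 and 33.7 against 53.4 and 57.5 CPM in HSCs, 88.8 and 85.7 against 109 and 100.3 in MPP1s, 97.02 and 100.5 against 106 and 122 in MPP2s, 91.3 and 99.5 against 91.4 and 107 in MPP3s and 116 and 112.5 against 113 and 133 in MPP4s. In the committed fractions Rfc1 stood at 76.7 and 80.7 against 129 and 126 CPM in GMPs, 94.7 and 89.7 against 133.5 and 127 in MEPs and 160.5 and 156 against 147 and 171 in CLPs. Both Aged libraries were above both Young ones in HSCs, MPP1s, MPP2s, GMPs and MEPs, with overlap in MPP3s, MPP4s and CLPs. The rise was 0.64 ± 0.11 (adjusted p = 0.000178) in GMPs and 0.50 ± 0.11 (adjusted p = 0.00145) in MEPs, against 0.21 ± 0.06 (adjusted p = 0.00308) over the MPPs. The call of the rise within GMPs held without any 1 GMP library and with offsets for GC content and length (0.54), while the MEP call was lost without any 1 MEP library. The larger difference in GMPs than over the MPPs was not called without any 1 GMP library or with those offsets.

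Replication protein A coats single-stranded DNA through its subunits Rpa1, Rpa2 and Rpa3. Of the 3 genes 2 rose in MPP1s and 2 in MPP3s, and 1 fell in CLPs. By edgeR 0 were called in HSCs, MPP2s, MPP4s, GMPs or MEPs. At an unadjusted p under 0.05, 1 was higher in HSCs, 2 in MPP2s and 2 in MPP4s, and 2 were lower in GMPs and 1 in MEPs, and DESeq2 called 1 higher in HSCs and 1 lower in each of GMPs and MEPs. Rpa2 (chr4:132768332-132778752, plus strand) was at 97.1 and 98.9 against 92.3 and 104 CPM in HSCs, 161.5 and 169.7 against 216 and 218 in MPP1s, 196 and 203 against 239.7 and 221 in MPP2s, 166 and 166 against 218 and 234.5 in MPP3s and 170.3 and 189 against 203 and 221 in MPP4s. In GMPs, MEPs and CLPs it was at 217 and 178 against 167 and 177 CPM in GMPs, 281 and 281 against 268 and 259.8 in MEPs and 208 and 205 against 145 and 177 in CLPs. The HSC groups overlapped, and in each MPP fraction both Aged libraries lay above both Young ones (0.38 ± 0.05 (adjusted p = 1.2e-06) over the mean). Rpa3 (chr6:8255936-8259173, minus strand), the smallest subunit, was at 21.1 and 21.1 against 28.1 and 26.5 CPM in HSCs, 26.3 and 31.7 against 36.6 and 41.6 in MPP1s, 39.1 and 40.8 against 50 and 46.4 in MPP2s, 34.99 and 32.6 against 47.1 and 44.5 in MPP3s and 34.9 and 39.7 against 44.3 and 40.1 in MPP4s. Its levels elsewhere were 47.6 and 45.03 against 37.2 and 38.3 CPM in GMPs, 70.1 and 65.6 against 57.5 and 52.5 in MEPs and 47.1 and 47.2 against 28.8 and 35.9 in CLPs. Rpa3 was called higher in MPP1s and MPP3s and lower in CLPs (-0.53 ± 0.11 (adjusted p = 0.00115)).

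Lagging strand maturation was represented by Fen1, the flap endonuclease, and Lig1, the ligase that joins the fragments. Fen1 (chr19:10199132-10204169, minus strand) was at 102 and 101 against 123 and 115 CPM in HSCs, 181.5 and 198 against 289 and 296 in MPP1s, 277 and 291 against 357 and 351 in MPP2s, 221 and 225 against 327 and 346.5 in MPP3s and 209.7 and 237 against 348 and 334 in MPP4s. Later it stood at 448 and 489 against 403.5 and 404 CPM in GMPs, 755 and 735.5 against 706 and 733 in MEPs and 371 and 356 against 285 and 346 in CLPs. Fen1 rose in all 4 MPP fractions (0.59 ± 0.04 (adjusted p = 4e-11)) and fell in GMPs (-0.27 ± 0.07 (adjusted p = 0.00653)), and its exons overlap Gm10143 over 1909 bases. The GMP call of Fen1 was lost without Young replicate 2 or either Aged replicate of the GMPs and with only the 4 GMP libraries fitted. Lig1 (chr7:13277283-13311433, plus strand) was at 48.2 and 35.3 against 78.6 and 74.3 CPM in HSCs, 134 and 138 against 238 and 222 in MPP1s, 218 and 223 against 254 and 275 in MPP2s, 167 and 186.5 against 219 and 221 in MPP3s and 189 and 176 against 223 and 249.6 in MPP4s. In committed cells Lig1 was at 151 and 157 against 211 and 218 CPM in GMPs, 263 and 251.2 against 332.5 and 334 in MEPs and 303 and 296 against 195 and 253 in CLPs. Unlike Fen1, it rose in 5 fractions, namely HSCs (0.92 ± 0.11 (adjusted p = 5.56e-06)), MPP1s, MPP4s, GMPs (0.43 ± 0.10 (adjusted p = 0.0029)) and MEPs (0.38 ± 0.10 (adjusted p = 0.00629)), and fell in CLPs (-0.41 ± 0.10 (adjusted p = 0.00671)). With offsets for GC content and length the GMP and MEP differences of Lig1 were 0.24 and 0.21 and were not called, and neither was called without any 1 library of its fraction.

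Nucleotide supply genes make the building blocks: Rrm1 and Rrm2 are the subunits of ribonucleotide reductase, Tyms makes thymidylate, Tk1 salvages thymidine and Dut clears dUTP. All 5 rose in MPP1s, MPP3s and MPP4s, 4 in MPP2s and 4 in HSCs, while 2 fell in GMPs, 2 in MEPs and 4 in CLPs. Rrm2 (chr12:24708241-24714146, plus strand) had the smallest p of all members over the MPPs. Its level was 22.4 and 25.7 against 42.9 and 46.8 CPM in HSCs, 112 and 102 against 195 and 189 in MPP1s, 209 and 213 against 292 and 288 in MPP2s, 161.5 and 157 against 277 and 250.4 in MPP3s and 137 and 141 against 267 and 278 in MPP4s. Past the MPPs it was 462 and 456 against 382 and 396 CPM in GMPs, 1059 and 1075 against 742 and 765 in MEPs and 609 and 589 against 369 and 440.2 in CLPs. No fraction had overlapping groups. Rrm2 rose by 0.94 ± 0.08 (adjusted p = 1.52e-07) in HSCs, by 0.81 ± 0.04 (adjusted p = 1.17e-12) over the MPPs and by as much as 1.06 ± 0.08 in MPP4s. It fell in GMPs (-0.29 ± 0.08 (adjusted p = 0.005)), MEPs (-0.50 ± 0.07 (adjusted p = 2.9e-05)) and CLPs (-0.55 ± 0.08 (adjusted p = 2.46e-05)). The GMP call of Rrm2 was lost without any 1 GMP library, with offsets for GC content and length and with only the GMP libraries fitted. Young MEPs had 44.4 times the mean level of Young HSCs. Rrm1 moved the same way, from 1409 and 1415 to 1037 and 1045 CPM in MEPs (-0.44 ± 0.06 (adjusted p = 2.12e-05)) and from 459.5 and 479 to 732 and 758 in MPP3s (0.71 ± 0.06 (adjusted p = 1.99e-07)). Tk1 and Tyms rose in HSCs by 1.22 ± 0.13 and 0.91 ± 0.08, and of these Tyms alone fell in CLPs (-0.38 ± 0.08 (adjusted p = 0.00116), against -0.35 ± 0.12 (adjusted p = 0.0521) for Tk1, with the difference between the genes not tested).

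Chromatin assembly factor 1 (Chaf1a and Chaf1b) places histones on new DNA, and Uhrf1 brings the maintenance methyltransferase to it. Of the 3 genes 2 rose in HSCs, 3 in MPP1s, 0 in MPP2s by edgeR (2 at an unadjusted p under 0.05 and 2 by DESeq2), 2 in MPP3s and 3 in MPP4s, 1 rose in GMPs and 1 in MEPs, and 2 fell in CLPs. Uhrf1 (chr17:56303321-56323486, plus strand) was at 92.96 and 90.01 against 146.5 and 137 CPM in HSCs, 317 and 299 against 479.8 and 489 in MPP1s, 489 and 487 against 547 and 543 in MPP2s, 388 and 378 against 569.8 and 583 in MPP3s and 420.5 and 394 against 594 and 587 in MPP4s. Then it was at 479 and 485 against 435 and 437 CPM in GMPs, 579 and 556 against 546 and 547 in MEPs and 751 and 706 against 498 and 621 in CLPs. The groups did not overlap in any fraction, and Uhrf1 rose in HSCs (0.68 ± 0.06 (adjusted p = 2.87e-07)) and over the MPPs (0.54 ± 0.03 (adjusted p = 1.67e-11)) and fell in CLPs (-0.37 ± 0.06 (adjusted p = 0.000221)). Chaf1a (chr17:56040439-56072289, plus strand) was at 37.9 and 32.98 against 54.9 and 50.9 CPM in HSCs, 109.9 and 109 against 155 and 156 in MPP1s, 171 and 168 against 179 and 179.8 in MPP2s, 119 and 138 against 154 and 166 in MPP3s and 146 and 123 against 175 and 182 in MPP4s. Its later levels were 123 and 142 against 194 and 175 CPM in GMPs, 194 and 169 against 242 and 245 in MEPs and 170.3 and 168 against 111 and 150.2 in CLPs. It rose in GMPs (0.43 ± 0.10 (adjusted p = 0.00372)) and MEPs (0.43 ± 0.10 (adjusted p = 0.00331)), but with offsets for GC content and length the GMP value was -0.01 and the MEP value 0.23, neither called. Exons of Chaf1a overlap those of Ubxn6 over 4648 bases, so that reads of the pair may be mixed.

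**Figure D4:**
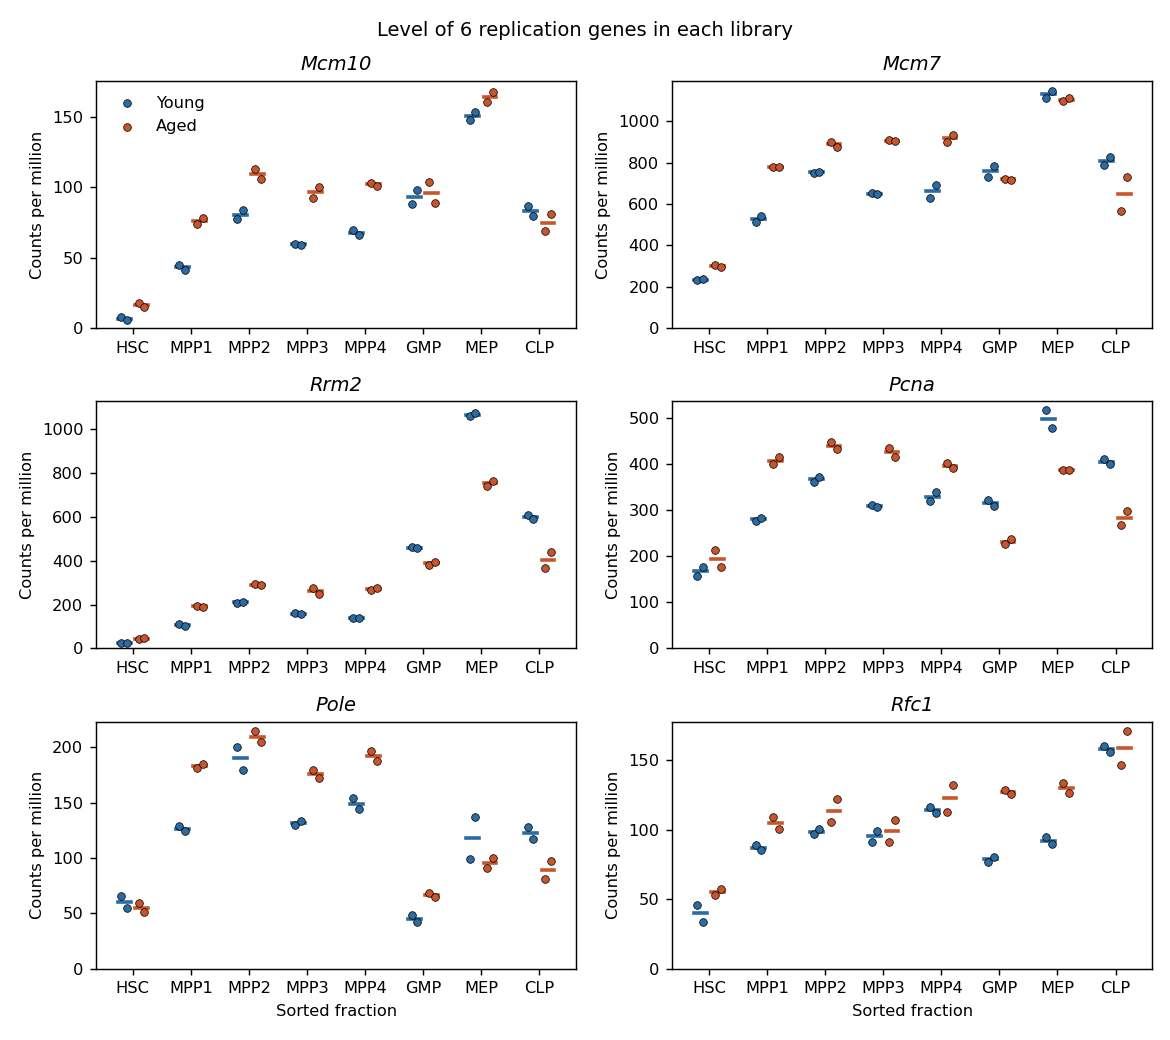
Level in CPM of Mcm10, Mcm7, Rrm2, Pcna, Pole and Rfc1 in every library of the 8 fractions, Young and Aged. Mcm10, Mcm7 and Rrm2 are higher in Aged HSCs and MPPs, Pcna is lower in Aged GMPs, MEPs and CLPs, and Rfc1 is higher in Aged GMPs and MEPs.

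The wider pathway was read from a list of 43 further replication genes, and 31 of these rose and 3 fell over the mean of the MPPs, where 18.9% and 17.7% of all genes tested did. Those with the smallest p were Nasp, a histone chaperone (0.58 ± 0.04), Pclaf, which binds Pcna (0.76 ± 0.05), and Dnmt1, the maintenance methyltransferase (0.55 ± 0.04). The 3 that fell were Samhd1, which degrades dNTPs (-0.42 ± 0.06), Pold4, the small subunit of polymerase delta (-0.42 ± 0.08), and Rrm2b, the ribonucleotide reductase subunit used outside S phase (-0.54 ± 0.13). By fraction 10 rose in HSCs, 23 in MPP1s, 7 in MPP2s, 19 in MPP3s and 20 in MPP4s, and 1 fell in MPP3s. The shares of all genes in these comparisons are those given above for the members. In GMPs 6 rose and 6 fell (9.93% and 8.97% of all genes), and in MEPs 3 rose and 7 fell (9.08% and 11.7%), so that these counts lay near the background. In CLPs 7 fell (4.73% of all genes), with the smallest p for Slbp (-0.35 ± 0.05), Tipin (-0.52 ± 0.09) and Asf1b (-0.53 ± 0.10), and Samhd1 rose (0.44 ± 0.11).

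Among 18 genes of E2F factors and the G1 to S transition, 5 rose and 1 fell in HSCs, 7 rose and 2 fell in MPP1s, 1 and 2 in MPP2s, 6 and 2 in MPP3s and 6 and 2 in MPP4s. Of all genes tested 3.74% rose and 1.66% fell in HSCs. The shares were 4.71% and 2.09% in MPP1s, 4.49% and 3.31% in MPP2s, 8.14% and 5.79% in MPP3s and 10.3% and 6.27% in MPP4s. In GMPs 1 rose and 5 fell, where 9.93% and 8.97% of all genes did. In MEPs 5 fell (11.7% of all genes), and in CLPs 1 rose and 4 fell (5.71% and 4.73%). Tfdp1, the partner that E2F factors need to bind DNA, differed by 0.47 ± 0.03 over the MPPs, -0.33 in GMPs and -0.23 in CLPs. Ccne1 and Ccne2, the cyclins of S phase entry, differed by 0.82 ± 0.06 and 0.57 over the MPPs and by -0.58 and -1.25 ± 0.11 in GMPs. The cell cycle inhibitor Cdkn1a was lower over the MPPs (-0.76), and E2f2 was lower in CLPs (-1.01 ± 0.14). Genes named from this list, from the mitosis list and from the markers below were chosen after their values were seen.

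Mitosis genes were set beside the replication genes. In a list of 20 mitosis genes, 16 rose in HSCs (3.74% of all genes tested), 13 in MPP1s (4.71%) and 11 in MPP2s (4.49%). In MPP3s 16 rose (8.14%) and in MPP4s 12 (10.3%), while 9 fell in CLPs (4.73%) with a median of -0.47. In Aged GMPs 18 of the 20 rose (9.93% of all genes) with a median of 0.79, and their sum went from 2000 and 2026 to 3339 and 3392 CPM. There 7 of the 10 licensing genes fell (8.97% of all genes). Of the other 35 replication genes 5 fell and 4 rose there. Cenpf and Mki67, both abundant in dividing cells late in the cycle, rose by 2.50 ± 0.25 and 2.34 ± 0.22, and Plk1, a kinase of mitotic entry, by 1.16 ± 0.12. Ccna2 and Ccnb2, the cyclins of S phase to mitosis, differed by 0.02 and -0.04. In MEPs 5 mitosis genes rose and 1 fell (9.08% and 11.7% of all genes). The count in GMPs was 14 or 15 without any 1 GMP library and 15 with only the 4 GMP libraries. Whether the 2 lists differ from each other in GMPs was not tested.

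**Figure D5:**
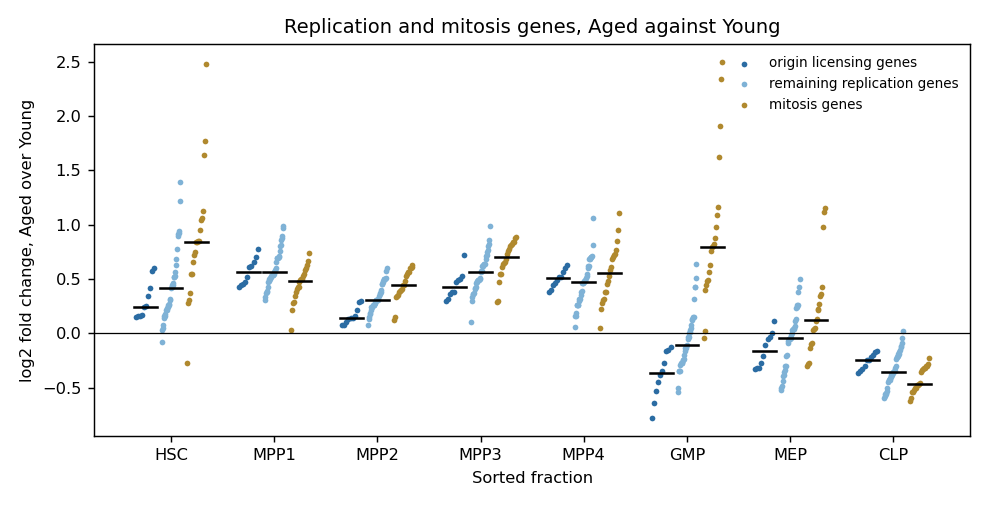
Log2 fold change, Aged over Young, of 10 licensing genes, the remaining 35 replication genes and 20 mitosis genes in 8 fractions, with bars at the medians. In GMPs the licensing genes have a median of -0.37 and the mitosis genes one of 0.79, and in CLPs all 3 sets lie mostly below 0.

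Markers of other cell types moved with age in some fractions, and their part in the replication gene differences was not tested. Of all genes tested 3.74% rose and 1.66% fell in HSCs, while 4.73% fell in CLPs, 8.97% in GMPs and 11.7% in MEPs. The shares that fell in MPP1s to MPP4s were 2.09%, 3.31%, 5.79% and 6.27%, and 4.49% and 8.14% rose in MPP2s and MPP3s. Over the mean of the MPPs 18.9% rose and 17.7% fell. In CLPs all 8 basophil and mast cell markers fell, from sums of 1760 and 1802 CPM to 11.1 and 16.7, with Prss34 at 1229 and 1244 CPM in Young and 0 and 0 in Aged libraries. There also fell 10 of 10 neutrophil genes (1939 and 1981 to 346 and 371 CPM), 8 of 8 macrophage genes (172 and 186 to 6.22 and 8.14 CPM), 8 of 14 B lineage genes (between 5311 and 5365 in Young and between 3746 and 4292 CPM in Aged CLPs) and 2 of 10 erythroid genes. The T and NK cell markers lay between 107.6 and 108.2 CPM in Young and between 120 and 144 CPM in Aged CLPs, with 1 of 8 called lower. In MEPs 13 of 14 B lineage genes fell, from between 1469 and 1499 to between 813 and 868 CPM, and Cd79a and Dntt were at 0 in both Aged libraries. In HSCs 7 of 10 neutrophil genes rose, from between 305 and 327 to between 706 and 867 CPM. The HSC sum of the 8 basophil and mast cell markers was between 548 and 567 CPM in Young and between 539 and 606 CPM in Aged libraries, but 4 of the 8 were called higher, among them Prss34, at 0 and 0 in Young and 5.34 and 12.5 CPM in Aged HSCs. Of the 8 T and NK cell markers 2 rose in HSCs (Nkg7 and Klrb1c), with sums between 34.04 and 37.1 CPM in Young and between 88.6 and 94.1 CPM in Aged libraries, and of the 8 macrophage markers 2 fell (Vcam1 and Hmox1). Macrophage markers also fell in the MPPs, and their part in the replication gene differences there was not tested. All 8 were lower over the mean of the MPPs, among them Hmox1 (-2.55 ± 0.14), Mrc1 (-2.39 ± 0.26) and Vcam1 (-2.33 ± 0.11). By fraction 2 fell in MPP1s, 4 in MPP2s, 6 in MPP3s and 6 in MPP4s. Their sum went from between 53.6 and 59.7 to between 18.4 and 20.2 CPM in MPP1s, from between 189 and 199 to between 51.7 and 53.5 in MPP2s, from between 152 and 161 to between 38.9 and 39.4 in MPP3s and from between 72.3 and 84.8 to between 13.5 and 14.01 in MPP4s. In HSCs it was between 62.7 and 72.6 CPM in Young and between 24.7 and 33.6 CPM in Aged libraries. In GMPs 4 of the 8 fell while the ranges of the sum overlapped (118 to 138 CPM in Young and 88.8 to 119 in Aged libraries), and in MEPs 4 fell from sums of at most 13.1 CPM. Over the mean of the MPPs 8 of 10 erythroid, 6 of 10 neutrophil, 6 of 14 B lineage, 2 of 8 basophil and mast cell and 1 of 8 T and NK cell markers also fell, while 1 erythroid, 2 neutrophil, 1 B lineage and 1 T and NK cell marker rose. In MPP2s and MPP3s 6 of 10 neutrophil genes fell in each, and 1 of 10 erythroid genes rose while 6 and 7 fell. In GMPs 6 of 10 erythroid genes fell, from between 337 and 376 to between 175 and 178 CPM, and 4 of 10 neutrophil genes fell while their sum stayed between 73780 and 77110 CPM. Genes of the sorting gates moved with age as well, and their part was not tested. Cd48 rose in all 4 MPP fractions (0.79 ± 0.06 over the mean), by 1.02 ± 0.14 in MPP1s, which were sorted without CD48. Its level there was 8.73 and 6.58 CPM in Young and 14.2 and 15.9 CPM in Aged libraries, below the 106 and 98.2 CPM of Young MPP2s, which were sorted with it. Kit, the gene of c-kit, was lower in MPP1s (-0.44 ± 0.11), MPP2s (-0.48 ± 0.11) and MPP4s (-0.50 ± 0.11) and higher in GMPs (0.41 ± 0.11). Flt3 was lower in HSCs (-0.82 ± 0.19), at 32.2 and 28.6 CPM in Young and 19.3 and 14.2 CPM in Aged libraries, and over the mean of the MPPs (-0.42 ± 0.08). In MEPs 5 of the 8 gate genes fell, Cd48 among them. In CLPs, where 5.71% of all genes rose, Ly6a, the gene of Sca-1 (2.6 ± 0.51), and Cd34 (0.44 ± 0.11) were higher. Fcgr3, a gene of FcgR, was lower in CLPs (-2.99 ± 0.18), and Kit, Slamf1, Cd48, Flt3 and Il7r were not called there. Fcgr3 was also lower in MPP2s (-0.63 ± 0.16), MPP3s (-1.35 ± 0.16) and MPP4s (-1.03 ± 0.27).

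The members moved together over the 32 libraries, and other genes moved with them. The Pearson correlation of log2 CPM with the mean of the other standardized members was highest for Mcm7 (0.997) and lowest for Pole (0.486), Chaf1b (0.702) and Pola1 (0.712). Outside all lists, the genes most like the members' mean were Exo1 (0.990), a nuclease of DNA repair, Trip13 (0.986), Rad54l (0.985), a recombination factor, Cenph (0.985) and Cenpk (0.981), which are kinetochore proteins, Lrr1 (0.979), Zwilch (0.979), H2afz (0.976), Mad2l1 (0.976), a spindle checkpoint protein, and Aunip (0.975). These coefficients are descriptions over 32 libraries that fall into 16 groups and share large differences between fractions.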

How the data were processed

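RNA was sequenced from 8 sorted fractions of mouse bone marrow at 2 ages, with 2 libraries in each of 16 groups. Per the labels and the study's methods, the authors amplified total RNA with a low-input template-switching kit, sequenced single reads, aligned them to mm10 with TopHat2 (2.0.13) and Bowtie2 (2.1.0) and took raw counts per gene of an iGenomes annotation from StringTie. The deposited count table holds these whole-number counts, made without molecular identifiers, so that PCR duplicates count as reads, and the counting is not stated to use strand. Reads of overlapping genes and near-identical copies can therefore be mixed. Besides the overlaps named above, exons of Rfc5 overlap Wsb2 over 499 bases, those of Lig1 Zswim9 over 247 and those of Pole2 Gm49384 over 245. Exons of Cdc45 overlap Ufd1 over 209 bases and those of Rfc4 Eif4a2 over 194. Further members also share exon bases with other genes, and Tyms, like Pcna, has a pseudogene. A second table of normalized counts and 8 tables with the authors' own comparisons (log2 fold changes, Wald statistics and p-values) were deposited and were not used. Library totals ranged from 11237384 to 17723245 counts, with a median of 13489609.5.

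Counts were scaled by TMM (factors 0.807 to 1.11), genes were filtered with filterByExpr over the 16 groups (14154 of 24421 kept), and 1 edgeR quasi-likelihood model was fitted to all 32 libraries (edgeR 4.0.16, limma 3.58.1, R 4.3.3; 16 residual degrees of freedom). Tests were two-sided with Benjamini-Hochberg adjustment over all genes tested within each comparison, at 0.01, the study's own level. The code was checked on simulated counts. DESeq2 (1.42.0), other scalings and filters, offsets for GC content and gene length, the replicate number as a block, fits on only the libraries compared and fits without each library in turn were alternatives. Positions, GC content and length came from GENCODE M21, where 23350 symbols matched directly, 668 through a synonym and 403 not at all.

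The members and lists were chosen with earlier results of these data known. Values in every library are given for the gene of each role with the smallest p over the MPPs, in CLPs and with the largest difference between Young fractions and HSCs, and for members called against the majority of a comparison. Other genes were named after their values were seen.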

Additional observations from a re-analysis of the deposited data

Results flagged for a closer look

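Age differences of the DNA replication genes were flagged where a test of the difference between fractions, in the edgeR fit of all 32 libraries, was passed against the mean over MPP1s to MPP4s. In CLPs 42 of the 45 members had a smaller age difference than the MPPs (12.3% of all genes tested), in GMPs 34 (13.8%) and in MEPs 34 (14.7%). In the other direction 1 member, Rfc1, had a greater difference in GMPs (12.7% of all genes) and 1, Mcm10, in HSCs (1.91%). Neither gap was called in every fit without 1 library, and that of Rfc1 was not called with offsets for GC content and length. All 5 counts share the MPP libraries.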

How the results depend on the processing

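Of the 646 differences called for the members over all comparisons, DESeq2 kept the direction and the call of all 646. With the size factors of DESeq2 in edgeR 7 calls were lost with the direction kept, and without a filter on low counts 16. With offsets for GC content and length 25 were lost in this way, with these and the block 26, and with only the libraries compared 69. The differences between duplicates of Young and of Aged cells in a fraction had correlations from -0.0557 to 0.0704 over all genes. Over the members they ran from -0.577 in GMPs to 0.271 in CLPs. Whether same-numbered libraries of different fractions came from the same pool was not tested by these correlations. With the replicate number as a block none of the 646 calls was lost. The members lower in HSCs than in the MPPs in their age difference went from 0 to 1. Beyond the counts of lost calls above, with offsets for GC content and length the call of Chaf1a in GMPs was lost. Its value there changed sign to -0.01, also with the block. The same offsets, without and with the block, gave 1 and 1 member higher in GMPs (4 in the reported fit), 1 and 1 higher in MEPs (3), 7 and 6 lower in HSCs than in MPPs (0) and 0 and 0 higher in GMPs than in MPPs (1), and with the block 20 higher in MPP2s (13). Without a filter on low counts 8 were higher in MPP2s, 1 higher in MEPs and 11 lower in MEPs (7). DESeq2 called 26 higher in HSCs (16), 13 lower in MEPs, and 2 higher and 4 lower in HSCs than in MPPs. With only the libraries compared, 1 was higher in HSCs, 33 in MPP2s, 2 higher and 6 lower in GMPs (12), 0 higher and 3 lower in MEPs, 0 lower in CLPs (17) and 4 lower in HSCs than in MPPs. When 1 library was left out, the counts ran from 8 to 15 higher in HSCs, 3 to 6 in MPP2s, 1 to 2 higher and 5 to 11 lower in GMPs, 0 to 1 higher and 4 to 7 lower in MEPs, 3 to 26 lower in CLPs, 0 to 2 higher and 0 to 4 lower in HSCs than in MPPs, and 0 to 1 higher in GMPs than in MPPs. The cause of these shifts was not tested, beyond the smaller number of libraries in some of the fits. A fit without 1 library assumes that the lone library of its group varies like those of the other groups. Depth limited the lowest members, of which Orc1 had 36 counts in 1 library.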
